A study of Mus musculus with 7 samples.

Results

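The granins and their companions in the secretory granule were followed here in whole mouse hypothalamus: Chga, Chgb, Scg2, Scg3, Scg5, Vgf, Pam, Tac1 and Penk. They were chosen by name, as every probe set that the platform annotation gives to a single symbol among these 9. That gave 10 probe sets, 2 of them for Tac1 and 1 for each other gene, out of 45037 probe sets and 18193 genes tested. The study hybridised RNA of 4 wild-type hypothalami and 3 Creb-PomcCre-/- hypothalami, all dissected at 3 months of age, to 1 Affymetrix mouse430_2 array each. The knockout removes Creb from cells that express Cre under Pomc, described by the submitters as arcuate neurons; the arrays do not show in which cells it was lost. The controls are called wild type, with no Cre or floxed allele named for them, and neither the strain nor any pooling of animals is stated in those labels. The question put to the data was which genes lie downstream of Creb in neurons that govern appetite.

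Peptide hormones and neuropeptides are made as long precursors, sorted into dense-core secretory granules, cut there by prohormone convertases and released when calcium rises. Granins are acidic proteins of the granule interior that aggregate with the cargo and help the granule form, and several are themselves cut into peptides. Hypothalamic neurons are rich in such granules, since much of what they send to the pituitary and to each other is peptide. The genes of several granins and neuropeptides are textbook targets of CREB, which binds the palindrome TGACGTCA, called the cyclic AMP response element.

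The promoters are shown because the deleted factor is known to bind that element; the letters alone do not show that it binds at these genes. Of the 9 genes, 7 had a promoter in the RefSeq table of build GRCm38.p6, whose windows run from 250 bases before to 50 bases after the gene's start. Vgf and Penk were not matched. Windows were searched on both strands for the full element and for its 5-letter core TGACG, which lies inside the full element on both of its strands. Of all 32851 promoter windows in the table, 1.79% hold the full element and 20.8% hold the core. Among the 7 genes, the window of 2 holds the full element (Chgb and Scg2) and that of 6 holds at least the core, while the 2 windows of Pam hold neither. Pcsk1, the prohormone convertase that cuts in the same granules, also holds the full element and is shown beside them. Of the other processing genes looked up, Pcsk2 held only the core. Neither the full element nor the core was found for Cpe and Pcsk1n. Each line below gives the 100 bases before the start, 5′ to 3′ on the gene's strand, with the full element and the core, in either orientation, in capitals.
Chgb, chr2:132781542-132781641, plus strand: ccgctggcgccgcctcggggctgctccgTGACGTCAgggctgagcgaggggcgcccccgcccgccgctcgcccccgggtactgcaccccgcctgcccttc
Scg2, chr1:79440027-79440126, minus strand: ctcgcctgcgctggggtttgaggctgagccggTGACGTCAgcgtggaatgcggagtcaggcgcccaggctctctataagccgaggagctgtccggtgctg
Pcsk1, chr13:75089757-75089856, plus strand: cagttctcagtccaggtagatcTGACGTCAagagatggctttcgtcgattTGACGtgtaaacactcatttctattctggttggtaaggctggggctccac
Chga, chr12:102554841-102554940, plus strand: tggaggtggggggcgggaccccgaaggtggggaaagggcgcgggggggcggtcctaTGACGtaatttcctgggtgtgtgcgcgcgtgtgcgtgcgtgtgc
Scg3, chr9:75684057-75684156, minus strand: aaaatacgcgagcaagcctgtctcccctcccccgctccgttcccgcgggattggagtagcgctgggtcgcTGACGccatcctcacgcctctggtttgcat
Tac1, chr6:7554961-7555060, plus strand: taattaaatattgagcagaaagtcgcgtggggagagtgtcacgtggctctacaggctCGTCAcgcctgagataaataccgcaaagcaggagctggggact

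The full element begins 72 bases before the start in Chgb, 68 in Scg2 and 78 in Pcsk1. In Chga the core, 44 bases before the start, is followed by letters that make TGACGTAA. In Scg3 it lies 30 bases before the start and reads TGACGCCA. Tac1 carries the core in the other orientation 43 bases before the start, and again 197 bases before it, where the letters on that strand are TGACGCAA. Scg5 holds 3 cores, which begin 175 bases before the start and, past it, at positions 20 and 41.

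Across the 9 genes, no change of the mean level passed the test. On the log2 scale 4 genes were higher and 5 lower in the knockout arrays than in the wild-type arrays, with a median difference of -0.0095 beside 0.0036 over all genes. Of the 9, 0 passed at an adjusted p of 0.05, where 2 of 18193 genes did (0.011%), and 0 had an unadjusted p under 0.05, where 11.7% of all genes did (limma, Benjamini-Hochberg over all genes). Groups overlapped for all 9, while they did not overlap for 12.1% of all genes. Of the 10 probe sets 0 passed, beside 0.00666% of all probe sets. The 95% intervals of the fold change reached from 0.778 for Scg5, at the lowest, to 1.23 for Tac1, at the highest, so that each gene's interval lies inside those bounds. The wild-type arrays were more spread than the knockout arrays for each of the 9 genes, and wild-type arrays 1 and 2 held most of the extreme values.

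RMA sets all arrays to nearly the same distribution: array medians ran from 6.19 to 6.24 on the log2 scale, and array pairs correlated at 0.994 to 0.997. The hypothalamic peptide genes Avp, Oxt, Pmch and Hcrt, added after their values were seen, had a lowest reading of 11.82, for Avp. They do not show how much neighbouring tissue each sample held. Creb1, the deleted gene, read 9.44, 9.57, 9.40 and 9.56 in wild type and 9.42, 9.46 and 9.47 in the knockout, a difference of -0.041 ± 0.052 (SE) that did not pass (adjusted p = 0.787). This does not check the labels, since Pomc cells are few in the tissue and no source used here places the probe set against the deleted exons. In whole tissue, fewer cells of a type and less RNA per cell cannot be told apart. By Xist and Y-linked transcripts, wild type held 2 female and 2 male arrays, and the knockout 1 female and 2 male arrays.

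**Figure D1:**
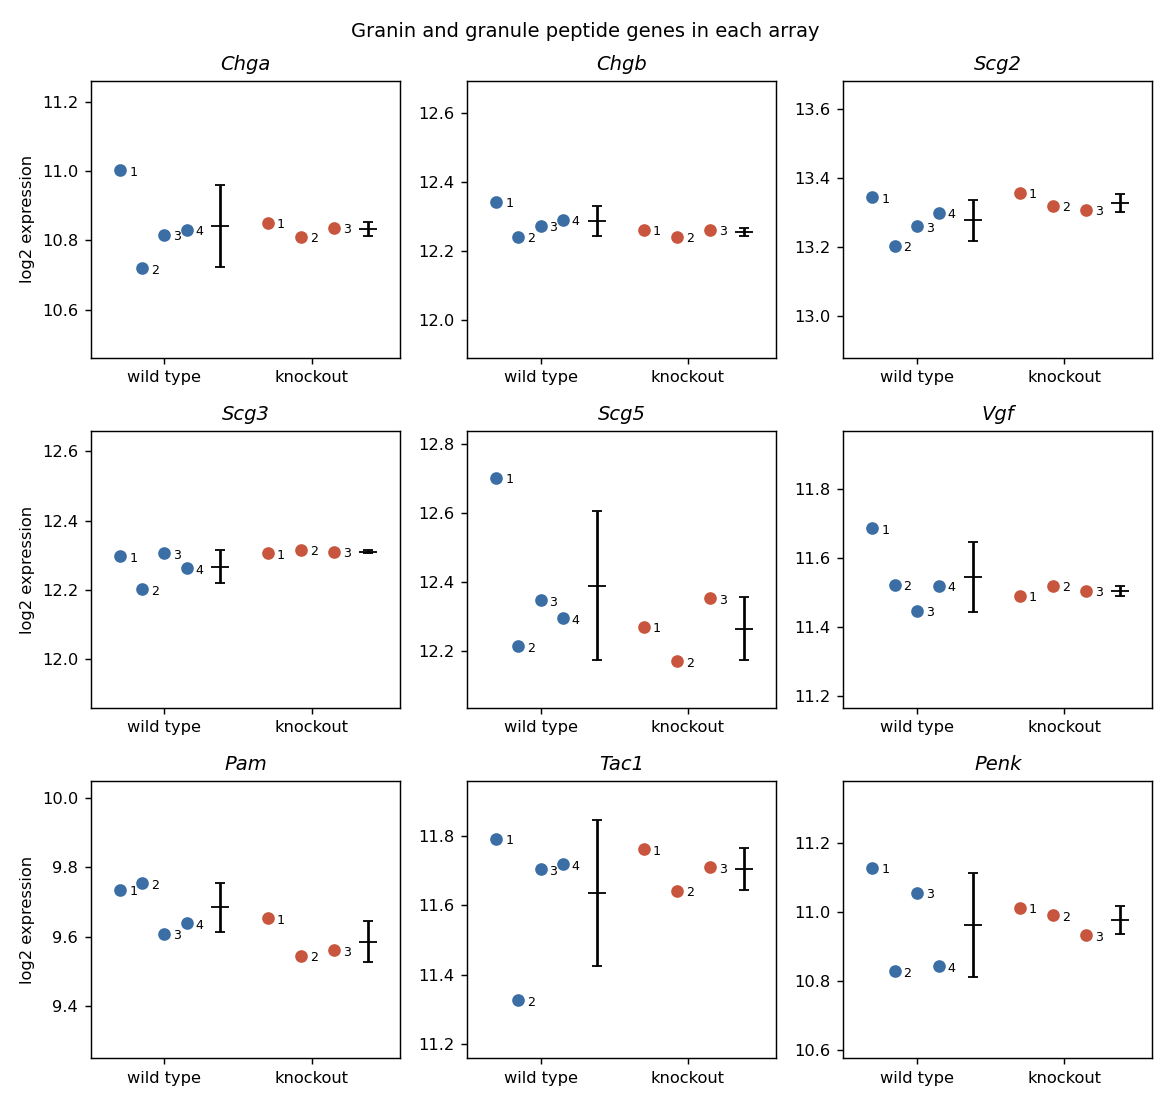
Log2 expression of each of the 9 genes (y axis, 0.8 log2 units in every panel) in the 4 wild-type arrays (blue) and the 3 knockout arrays (red). Each point is an array, labelled with its replicate number, and bars give mean ± SD. Wild-type array 1 lies highest for Scg5 and wild-type array 2 lowest for Tac1, and the groups overlap in every panel.

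Chromogranin A, the founding granin, is encoded by Chga and is the precursor of several regulatory peptides. Chga read 11.00, 10.72, 10.82 and 10.83 in wild-type arrays 1 to 4 and 10.85, 10.81 and 10.84 in knockout arrays 1 to 3, on the log2 scale. The knockout arrays sat in the middle of the wild-type range, with wild-type array 1 above them and wild-type array 2 below. The log2 difference was -0.0095 ± 0.061 (SE), with a 95% interval from -0.15 to 0.13 and an adjusted p of 0.964. It was 0.044 without wild-type array 1.

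Chromogranin B, encoded by Chgb, aggregates with peptide cargo as the granule forms. Its wild-type arrays read 12.34, 12.24, 12.27 and 12.29, and its knockout arrays read 12.26, 12.24 and 12.26. Knockout values filled the lower end of the wild-type range. Chgb, with the full element in its promoter, differed by -0.032 ± 0.031 (SE), with an interval from -0.10 to 0.038 and an adjusted p of 0.707. Without wild-type array 1 it was -0.013, and without wild-type array 2 it was -0.047. Its within-group SD of 0.034 was at the 4.42nd percentile of all genes, and at the 18.8th among genes of similar mean level.

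Secretogranin II, encoded by Scg2, is the precursor of secretoneurin. Its probe set read 13.34, 13.20, 13.26 and 13.30 in wild type and 13.36, 13.32 and 13.31 in the knockout. Wild-type array 1 alone reached into the knockout range. Scg2, the other gene with the full element, differed by 0.052 ± 0.035 (SE), opposite in sign to Chgb, with an interval from -0.028 to 0.13 and an adjusted p of 0.585. The difference was 0.027 without wild-type array 2 and 0.0063 without wild-type arrays 2 and 3.

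Scg3 encodes secretogranin III, which ties chromogranin A to the cholesterol-rich granule membrane. It read 12.30, 12.20, 12.31 and 12.26 in wild type, against 12.31, 12.32 and 12.31 in the knockout. The knockout arrays lay within 0.011 of each other. Knockout arrays 2 and 3 read above every wild-type array, knockout array 1 lay just under wild-type array 3, and wild-type array 2 was lowest. The difference was 0.044 ± 0.032 (SE), with an interval from -0.028 to 0.12 and an adjusted p of 0.604. It was 0.022 without wild-type array 2 and 0.057 without wild-type array 3.

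Scg5 encodes 7B2, the chaperone that brings prohormone convertase 2 to the granule and holds it inactive on the way. It read 12.70, 12.21, 12.35 and 12.30 in wild type and 12.27, 12.17 and 12.35 in the knockout. Wild-type array 1 stood well above every other array, and the other 6 arrays of both genotypes were intermixed. Scg5 had the largest difference of the 9 genes, -0.12 ± 0.10 (SE), with an interval from -0.36 to 0.11 and an adjusted p of 0.656. Without wild-type array 1 it was -0.021, and without wild-type array 2 it was -0.18.

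Vgf encodes a granin-related precursor, induced by nerve growth factor, whose peptides act on energy balance. It read 11.69, 11.52, 11.45 and 11.52 in wild type and 11.49, 11.52 and 11.50 in the knockout. The knockout arrays again lay inside the wild-type range, below wild-type array 1. The difference of -0.039 ± 0.052 (SE) had an interval from -0.16 to 0.080 and an adjusted p of 0.799, and it was 0.0086 without wild-type array 1.

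Pam encodes the granule enzyme that converts a C-terminal glycine into an amide, the last step in making many active peptides, substance P and alpha-MSH among them. It read 9.74, 9.75, 9.61 and 9.64 in wild type and 9.65, 9.54 and 9.56 in the knockout. Knockout arrays 2 and 3 lay below all 4 wild-type arrays, and knockout array 1 among them. With a difference of -0.099 ± 0.052 (SE), an interval from -0.22 to 0.019 and an adjusted p of 0.486, Pam had the smallest p of the 9 genes. Leaving out any single array kept it between -0.13 and -0.075.

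Tac1 is the precursor gene of substance P and neurokinin A. Its brighter probe set read 11.79, 11.33, 11.70 and 11.72 in wild type and 11.76, 11.64 and 11.71 in the knockout. Wild-type array 2 lay well below every other array, and the remaining 6 arrays were intermixed. The difference was 0.070 ± 0.10 (SE), with an interval from -0.16 to 0.30 and an adjusted p of 0.812, and it turned to -0.034 without wild-type array 2. The dimmer Tac1 probe set read 3.12 to 3.28 in wild type and 3.18 to 3.39 in the knockout, a level that cannot be told from background.

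Penk is the precursor gene of the enkephalins, opioid pentapeptides that many hypothalamic neurons release. It read 11.13, 10.83, 11.05 and 10.84 in wild type and 11.01, 10.99 and 10.93 in the knockout. The wild-type arrays fell into a higher and a lower pair, and all 3 knockout arrays lay between those pairs. The difference was 0.014 ± 0.074 (SE), with an interval from -0.15 to 0.18 and an adjusted p of 0.955. It was -0.030 without wild-type array 2 and 0.069 without wild-type array 1.

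The extremes of the 9 genes gathered in a pair of arrays. Wild-type array 1 held the highest value of Chga, Chgb, Scg5, Vgf, Tac1 and Penk, 6 of the 9 genes. Wild-type array 2 held the lowest value of Chga, Chgb, Scg2, Scg3, Tac1 and Penk, again 6 of 9, though for Chgb knockout array 2 read the same to 2 decimals. Averaged over the 6 granin genes Chga, Chgb, Scg2, Scg3, Scg5 and Vgf, each taken as its deviation from its own mean, wild-type arrays 1 to 4 stood at 0.14, -0.076, -0.018 and -0.010 and knockout arrays 1 to 3 at -0.0036, -0.030 and 0.0025. Pam had wild-type array 2 as its highest array, where the means of the neuron and microglia markers were highest too. Over the 7 arrays Pam correlated with the neuron markers at 0.75 and with the microglia markers at 0.80, and without wild-type array 2 at 0.55 and 0.72; their part in its values was not tested.

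**Figure D2:**
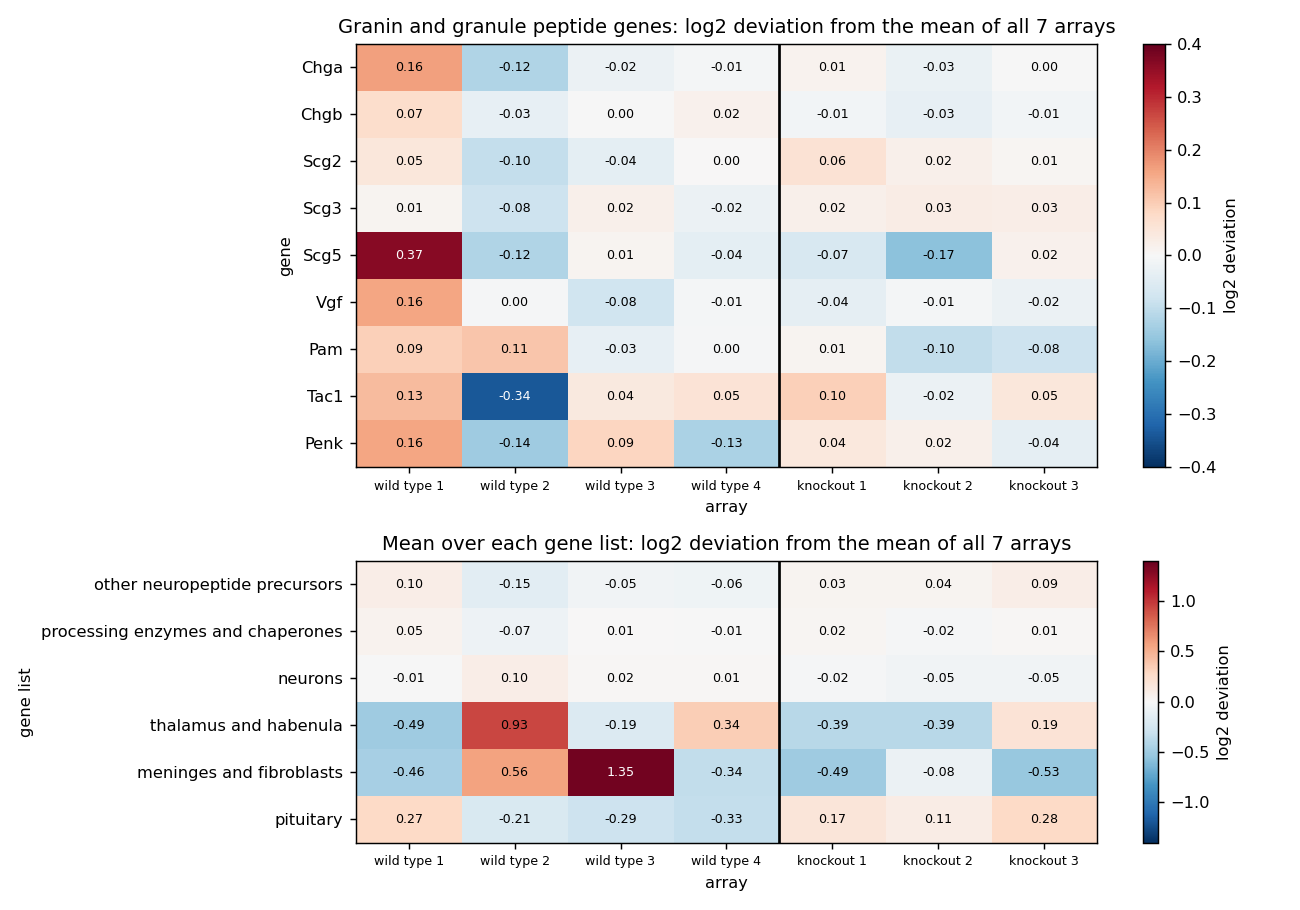
Log2 deviation of each gene from its mean over all 7 arrays (upper panel) and the mean deviation over 6 gene lists (lower panel), with arrays in columns and colour scales that differ between panels. Wild-type array 1 is high for 6 genes; wild-type array 2 is lowest for 6 genes and has the highest mean for thalamus and habenula markers, 0.93.

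The SD over wild-type arrays exceeded the SD over knockout arrays for 9 of 9 genes. The same was true of 52.4% of all genes and of 59.5% of the 1820 genes with the highest mean levels. The median SD of the 9 genes was 0.10 in wild type and 0.026 in the knockout, and the ratio of the SDs ran from 1.23 for Pam to 8.66 for Scg3. The count was 8 of 9 without wild-type array 1 and without wild-type array 2, beside 46.1% and 48.1% of all genes. Without both it was 5 of 9, beside 36.4% of all genes. Those arrays were singled out for holding most of the extremes of these genes, and leaving out extremes tends to narrow a spread. The 9 genes are not separate observations. Over arrays Chga correlated with Chgb at 0.89 and Chgb with Scg5 at 0.93, while Chga correlated with Pam at 0.15. Scg5, Tac1 and Penk varied most within groups, at the 87.8th, 86.1st and 67.6th percentiles of all genes. Chgb and Scg3 varied least, at the 4.42nd and 5.82nd. Among genes of similar mean level, Scg5, Tac1 and Penk stood at the 96.5th, 96.2nd and 90.8th percentiles. Chgb and Scg3 stood at the 18.8th and 23.7th.

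Markers of neighbouring tissue moved with these arrays. The 15 thalamus and habenula markers are not all low in hypothalamus: Calb2 and Cplx1 read above 11.9 in every array, and the habenula marker Pou4f1 read 3.25 to 4.14. Averaged, they had their highest mean level in wild-type array 2 (9.41) and their lowest in wild-type array 1 (7.98), with knockout arrays between 8.09 and 8.67. The protein kinase gene Prkcd, a thalamic marker, read 6.73, 10.29, 7.53 and 9.25 in wild type and 6.94, 7.02 and 8.58 in the knockout. Synpo2 read 6.68, 9.86, 7.45 and 8.82 and then 6.91, 7.04 and 8.45. Several of the 9 genes ran against this signal over the 7 arrays. The correlation with the thalamic mean was -0.88 for Penk, -0.87 for Scg3, -0.82 for Scg2, -0.80 for Tac1 and -0.71 for Chga, while it was 0.33 for Pam. Without wild-type array 2 these were -0.86, -0.58, -0.49, -0.22, -0.45 and -0.34 in the same order. Over all 7 arrays, negative correlations were not particular to the thalamic markers. With the neuron markers these genes, in that order, correlated at -0.42, -0.89, -0.79, -0.72, -0.46 and 0.75 over the 7 arrays. With the markers of striatum the values were -0.48, -0.62, -0.79, -0.73, -0.46 and 0.28. Without wild-type array 2 the values with the neuron markers were 0.11, -0.60, -0.38, 0.39, 0.13 and 0.55. Those with the striatum markers were then -0.12, 0.13, -0.51, -0.16, -0.012 and -0.31. In the knockout, 13 of the 15 thalamic markers read lower, with a median difference of -0.35, and 0 passed. Of 15 markers of meninges and fibroblasts, 13 read lower as well, with a median of -0.71 and 0 past the threshold; their mean level was 6.48 to 8.30 in wild type, highest in wild-type array 3, and 6.42 to 6.87 in the knockout. The 11 striatum markers measured, from another region rich in Tac1 and Penk, had mean levels of 8.42 to 8.48 in wild type and 8.39 to 8.46 in the knockout. The part of dissection in the levels of these genes was not tested.

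The genes most like the granin mean over the 7 arrays were Nlgn1 (r = 0.963), Tatdn1 (r = 0.962), Ccdc32 (r = 0.956), Ece1 (r = 0.953) and Snhg5 (r = 0.952), out of 8895 genes ranked. Without wild-type array 1 these correlations fell to between 0.679 and 0.777. Tac1 was matched most closely by Psmc5 (r = 0.987), by Otp, a transcription factor gene of neuroendocrine hypothalamic neurons (r = 0.971), and by Nomo1 (r = 0.966). Without wild-type array 2 the values were 0.953, 0.941 and 0.792. Penk was matched by Mad2l2 (r = 0.977), Crtap (r = 0.971) and Snhg7 (r = 0.962), and these stayed at 0.957 to 0.987 without wild-type array 2. The 7 points of each correlation share the genotype groups and the dissections, and a gene picked as the closest of so many is high by selection.

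Of 15 measured enzymes and chaperones that process granule cargo, 7 were higher and 8 lower in the knockout. Their median log2 difference was -0.00070, and 0 passed, beside 51.5% of all genes higher and a median of 0.0036. Pcsk1 showed the largest difference of this list. It read 8.25, 7.51, 7.91 and 7.88 in wild type and 8.37, 8.10 and 7.999 in the knockout, and wild-type array 1 lay among the knockout arrays. The difference of 0.27 ± 0.16 (SE) had an interval from -0.090 to 0.64 and an adjusted p of 0.524. It was 0.094 without wild-type arrays 2 and 3, and 0.40 without wild-type array 1.

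Cpe, the carboxypeptidase that trims basic residues after the convertases have cut, differed by 0.00084 ± 0.038 (SE). Its dimmer probe set differed by -0.21 ± 0.10 (SE) with no overlap between groups (adjusted p = 0.501 over all probe sets). Pcsk1n encodes proSAAS, a granin-like inhibitor of Pcsk1, and differed by 0.031 ± 0.043 (SE). Furin, a convertase of the trans-Golgi network, differed by -0.082 ± 0.061 (SE), and Rnpep, an aminopeptidase for basic residues, by -0.098 ± 0.051 (SE). Adjusted p was 0.482 for Rnpep, 0.615 for Furin, 0.808 for Pcsk1n and 0.994 for Cpe. Pcsk2 was not named from any probe set here.

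**Figure D3:**
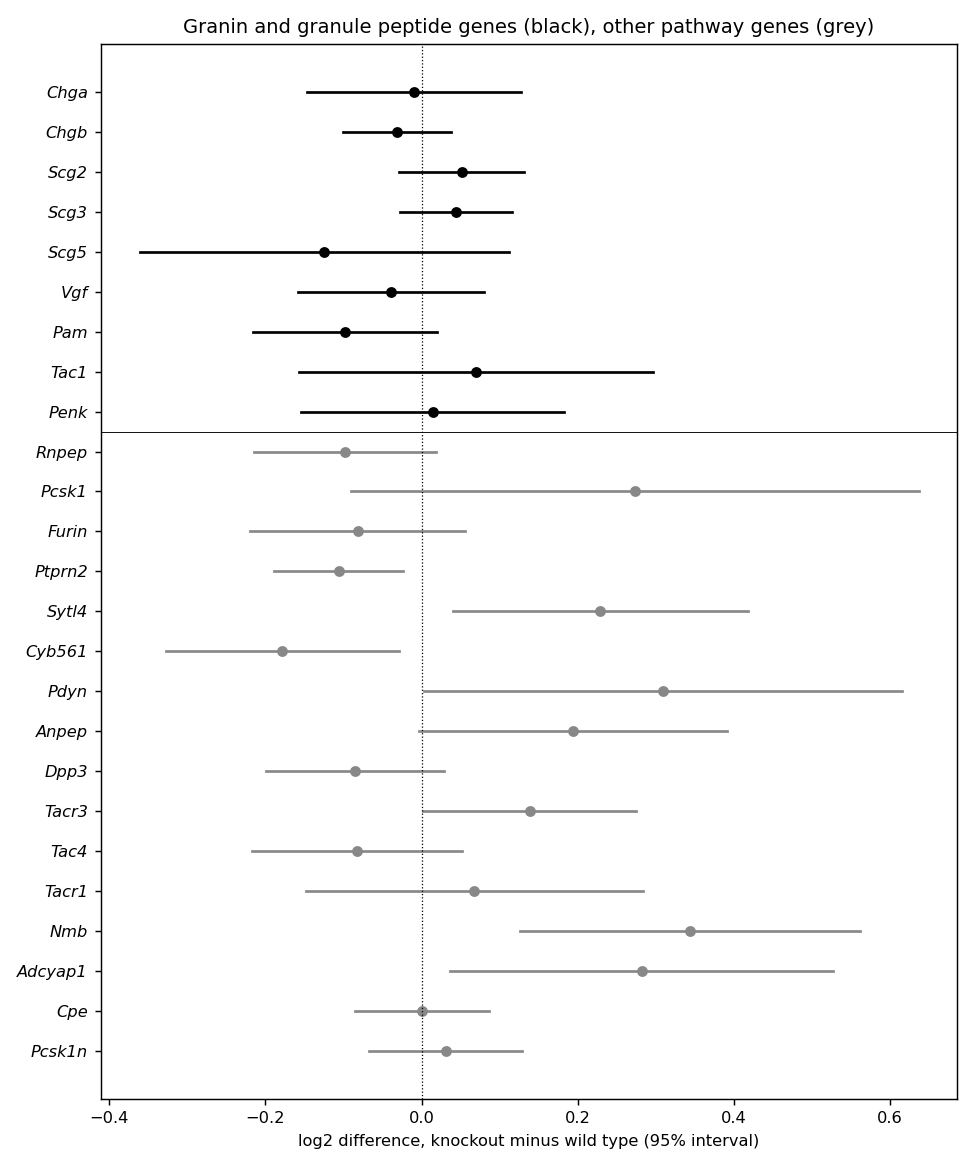
Log2 difference, knockout minus wild type (x axis), with its 95% interval, for the 9 genes (black) and 16 other named pathway genes (grey). Every black interval spans 0; among grey genes, Nmb lies farthest from 0 at 0.34. Tshb, at 1.82, is left out because it lies beyond the axis.

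Of 41 measured genes that build, move and release granules, 14 were higher and 27 lower in the knockout; the median log2 difference was -0.052. None passed (0 of 41 over all genes, limma), 3 had an unadjusted p under 0.05 (7.32%, beside 11.7% of all genes) and the groups did not overlap for 5 (12.2%, beside 12.1%). Ptprn2 encodes phogrin, a membrane protein of dense-core granules. Its arrays read 11.63, 11.70, 11.68 and 11.73 in wild type and 11.59, 11.53 and 11.63 in the knockout. All 3 knockout arrays lay below all 4 wild-type arrays, though the nearest pair read 11.629 and 11.625. The difference was -0.11 ± 0.037 (SE) with an adjusted p of 0.343. The dimmer Ptprn2 probe set differed by -0.072 ± 0.096 (SE) with overlapping groups.

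Cyb561, the granule membrane cytochrome that keeps ascorbate reduced for enzymes such as Pam, differed by -0.18 ± 0.066 (SE), with an adjusted p of 0.367. Sytl4 encodes granuphilin, a Rab27 effector on granules. It read 9.33, 9.02, 9.16 and 8.98 in wild type and 9.32, 9.31 and 9.42 in the knockout. That was a difference of 0.23 ± 0.083 (SE) with an adjusted p of 0.363. The dimmer Sytl4 probe set differed by 0.045 ± 0.075 (SE). Of 14 general neuron markers, 12 read lower in the knockout and 0 passed (limma, smallest adjusted p = 0.158). An unadjusted p under 0.05 was reached by 3 (21.4%, beside 11.7% of all genes). The groups did not overlap for 4 (28.6%, beside 12.1% of all genes). The median difference of the 14 was -0.066, with Rbfox3 and Nefm both at -0.18. Mean levels of the 14 ran from 11.60 to 11.71 in wild type and from 11.56 to 11.59 in the knockout. Snap25 and Syt1 belong to both lists, and the part of the neuron markers in the granule list was not tested.

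The opioid and tachykinin partners of Penk and Tac1 did not pass either. Of 10 opioid peptide, receptor and peptidase genes 4 were higher, with a median of -0.0076. Pdyn, the dynorphin precursor gene, read 7.87, 7.45, 7.81 and 7.55 in wild type and 8.04, 8.18 and 7.71 in the knockout, a difference of 0.31 ± 0.13 (SE) with an adjusted p of 0.422. Of the enkephalin-degrading peptidase genes, Anpep differed by 0.19 ± 0.087 (SE) at a dim level, and Dpp3 by -0.085 ± 0.050 (SE), with its dimmer probe set at 0.093. Pomc, the opioid precursor gene of the Cre-expressing cells, differed by 0.21 ± 0.24 (SE), with an adjusted p of 0.765.

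Of 6 tachykinin ligand, receptor and peptidase genes 2 were higher, with a median of -0.011. Tacr3, the neurokinin B receptor gene, read 9.66, 9.42, 9.46 and 9.50 in wild type and 9.67, 9.62 and 9.66 in the knockout. It differed by 0.14 ± 0.060 (SE), with an adjusted p of 0.419. Without wild-type arrays 2 and 3 it differed by 0.067, and without wild-type array 1 by 0.19. Its second probe set was higher in all 3 knockout arrays than in any wild-type array, by 0.23 ± 0.072 (SE), which missed the threshold (adjusted p = 0.354 over all probe sets). The third, a dim probe set, differed by 0.049 ± 0.079 (SE) with overlapping groups. Tacr1, the substance P receptor gene, differed by 0.068 ± 0.095 (SE), and Tac4 by -0.082 ± 0.059 (SE).

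Of 30 other peptide precursor genes measured, 22 were higher and 8 lower in the knockout, and their median log2 difference was 0.049. Over arrays, the list's mean deviation was lowest in wild-type array 2, at -0.15, where the thalamic markers were highest, at 0.93, and the part of those markers was not tested. Of the 30 genes, 0 passed and 6 had an unadjusted p under 0.05 (20%, beside 11.7% of all genes), all of them higher. The groups did not overlap for 1 of the 30 (3.33%, beside 12.1% of all genes). Nmb, the neuromedin B gene, read 7.70, 7.58, 7.43 and 7.63 in wild type and 7.87, 8.13 and 7.79 in the knockout, a difference of 0.34 ± 0.096 (SE) with no overlap and an adjusted p of 0.280. Adcyap1, the gene of the peptide PACAP, differed by 0.28 ± 0.11 (SE) and its other probe set by 0.24 ± 0.100 (SE). The first had an adjusted p of 0.377. Its difference was 0.13 without wild-type arrays 2 and 3, and 0.37 without wild-type array 1.

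Tshb, a thyrotropin subunit gene known from the pituitary that the peptide list also held, read 7.54, 5.37, 4.64 and 4.98 in wild type and 7.62, 6.78 and 7.94 in the knockout. Its difference of 1.82 ± 0.62 (SE) did not pass (adjusted p = 0.343), and passed without wild-type array 1, at 2.45 (adjusted p = 0.0435). Adjusted p-values over its alternatives ran from 0.0435 to 0.791. The 10 pituitary markers measured had mean levels of 4.97 to 5.57 in wild type and 5.40 to 5.58 in the knockout, with wild-type array 1 as the highest wild-type array. Cga, the shared hormone subunit gene, read 10.11 in that array and 6.91 to 8.30 in wild-type arrays 2 to 4. In the knockout it read 9.23 to 9.38. Tshb and Cga both belong to the 10 pituitary markers, of which 8 read higher and 2 lower in the knockout, with a median difference of 0.056. The hormone genes Prl and Gh of that list differed by -0.0017 and 0.0043, with knockout means of 4.12 and 5.78. Apart from Tshb and Cga, the pituitary markers read at most 5.97 (Gh, knockout array 1), below the lowest array median of 6.19. At such levels the sign of a small difference says little. The part of pituitary tissue in the values of the peptide genes was not tested.

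**Figure D4:**
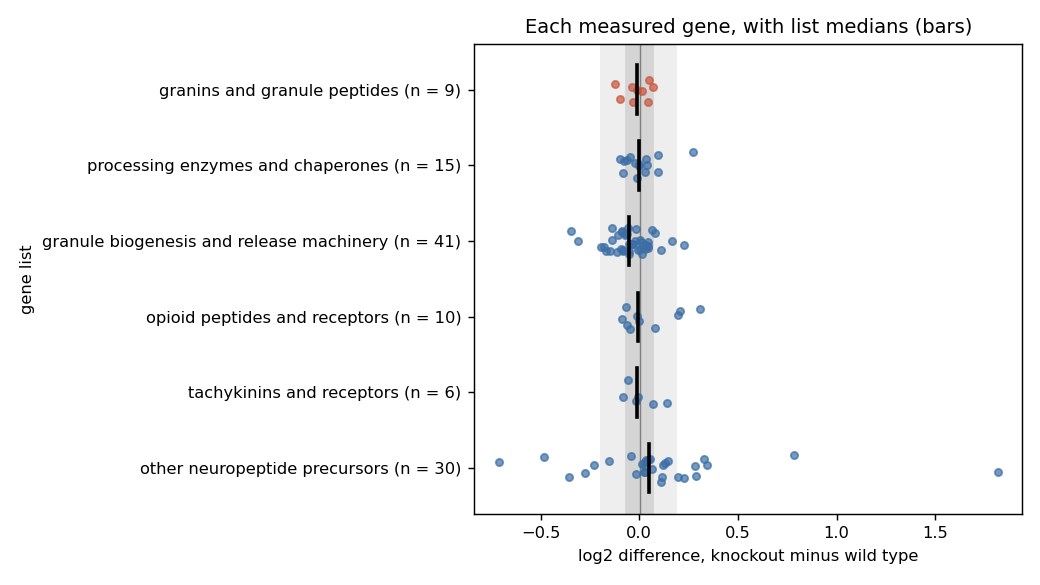
Log2 difference, knockout minus wild type (x axis), of every measured gene (points) in the 9 granin and granule peptide genes (red) and 5 pathway lists (blue), with list medians as black bars. The dark band spans the quartiles of all genes, from -0.065 to 0.071, and the light band their percentiles 5 to 95, from -0.19 to 0.19; all 9 red points lie inside the light band.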

How the data were processed

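Arrays of 7 hypothalami were read from the series' value table, which holds the log2 expression values the authors deposited. The submitters' processing notes name R 2.10.0, affy and RMA, without settings; RMA equalises distributions between arrays and gives no detection calls. The 64 control probe sets were left out. A gene was represented by its single-symbol probe set with the highest mean in GEO's platform annotation. Knockout and wild type were compared with the package limma 3.58.1 under R 4.3.3, whose variance prior followed a trend on intensity; p-values are two-sided and were adjusted by Benjamini-Hochberg over all genes or all probe sets, with a threshold of 0.05. The fit was checked on data made with known differences, drawn for each gene independently and so without shared array effects. Recovery was required only for differences of 1 log2 unit. That is larger than any difference of the granin and granule peptide genes, so the check does not cover changes of their size. Error is limma's SE or the SD over arrays, and precision is limited by how few arrays there are. The labels call the samples biological replicates without saying that each is 1 animal, so p-values measure the spread between these samples.

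Members and lists were chosen with earlier results of these data known. Named pathway genes are the 3 with the smallest unadjusted p in each list, plus Pcsk1, Pcsk2, Cpe and Pcsk1n; Pomc, Creb1 and the hypothalamic peptide genes were added after their values were seen. Genes most like a pattern are those with the highest Pearson correlation among genes at or above the median level: 5 for the granin mean, 3 each for Tac1 and Penk. Promoters come from RefSeq (GRCm38.p6). Settings varied were dim probe sets, variance trend, array weights, normalization, probe set choice, sex, replicate block and left-out arrays. Figures used matplotlib 3.10.9 in Python 3.11.15.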

Additional observations from a re-analysis of the deposited data

Results flagged for a closer look

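In the dimmer Tac1 probe set, wild-type array 4 read 3.12 against 3.28 in each of the other 3 wild-type arrays, a gap large enough to mark it as an outlier within its group of 4 by Dixon's test. The level cannot be told from background. Of 34 probe sets tested in this way for the 9 genes and the named pathway genes, this was the 1 marked, where chance marks about 1 in 20.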

How the results depend on the processing

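Under 16 alternatives, 0 of the 9 granin and granule peptide genes passed, and the smallest adjusted p among their 144 values was 0.352. The sign was kept in 131 of these values and turned in 13, but these are not separate checks. Dropping dim probe sets or the variance trend cannot change a difference, nor can averaging probe sets for a gene with 1. Leaving out wild-type array 4 gives the same differences as the arrays numbered 1 to 3, with or without the replicate block. Chga was at 0.0083 with values quantile normalized again and at 0.0074 with sex as a covariate. Without wild-type arrays 2 and 3, Tac1 was at -0.051, Penk at -0.0071 and Pcsk1n at -0.021. Dpp3 was at 0.0038 with the mean of all its probe sets, and Cpe was at -0.10 with that mean, -0.0064 with array weights, -0.021 after quantile normalization and -0.0082 with sex. With an array left out, Chga ran from -0.051 to 0.044, Vgf from -0.071 to 0.0086, Tac1 from -0.034 to 0.12, Penk from -0.030 to 0.069, Tacr1 from -0.025 to 0.14, Cpe from -0.039 to 0.036 and Pcsk1n from -0.0012 to 0.054. Of the pathway genes, between 0 and 1 passed, the 1 being Tshb without wild-type array 1. The cause was not tested. Over the arrays numbered 1 to 3, Penk was at -0.026 with or without the replicate block. In that balanced layout the block can change only the SE and p, not the difference. Of the 9 genes, 0 passed either way. Deviations of same-numbered arrays correlated at 0.32, 0.077 and 0.18 over genes, and those of differently numbered arrays at -0.30 to 0.16. Each knockout array correlated best with the wild-type array of its own number, while wild-type array 2 correlated best with knockout array 3. The number was not taken as a pairing, since no label says that it marks a shared litter, day or animal. RMA values carry no detection call, which limits what dim levels show.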

Other observations

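Genes that share the full cyclic AMP response element with Chgb and Scg2 were looked at after the values of these genes were seen. Of the 14452 measured genes with a promoter window in the RefSeq table, 422 hold TGACGTCA. Of those, 221 were higher and 201 lower in the knockout, with a median log2 difference of 0.0048, beside a median of 0.0038 over the 14030 genes without the element. An unadjusted p under 0.05 was reached by 13.3% of genes with the element and by 11.8% of genes without it (limma), and 0 with the element passed after adjustment. The groups were fully separate for 14.0% of genes with the element and 12.2% of those without. These are descriptions of whole tissue.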
